A study of Danio rerio with 8 samples.

Results

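Transcripts of antigen presentation, complement and lysosomal proteolysis were examined in rods and in the other cells of the adult zebrafish retina. The genes were taken by name from the annotated table that the study deposited. The pattern covers MHC chains and *cd74*, beta-2 microglobulin, the peptide transporter and its partners, immunoproteasome subunits, C1q, C3, C4 and alternative pathway complement, cathepsins, legumain, *ifi30*, lysozyme, *gm2a*, hexosaminidases and LAMP proteins. It found 37 genes among the 13325 of that table, which in turn holds part of the 33737 gene IDs with counts. Of the 37, 35 had enough counts to be tested, and *ctssa* and *C4H12orf45* did not.

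The libraries came from 4 adult fish of the *xops:eGFP* line, which expresses eGFP in rods under a *Xenopus* rod opsin promoter. All fish were dark-adapted. Cells of both retinas of each fish, freed with trypsin and papain, were sorted by FACS into GFP+ cells (rods) and GFP- cells (everything else that was collected), so each fish gave 1 GFP+ and 1 GFP- library. The GFP- population is a mixture of cell types, and the same transgene is carried by the fish of both populations. RNA was amplified before sequencing, and no treatments or genotypes were compared. The paper states that its design included sex as a variable. The sample labels give no sex, so sex could not be told apart from other differences between fish.

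MHC class I molecules display peptides cut by the proteasome, carried into the endoplasmic reticulum by the TAP transporter and loaded with the help of tapasin. MHC class II molecules display peptides made by lysosomal proteases, and the invariant chain CD74 occupies their groove until cathepsins remove it. Class II molecules and C1q are typical of microglia and macrophages, whereas lysosomal hydrolases such as cathepsin D and the hexosaminidases are made by nearly all cells.

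Depth was 1722055 to 2206479 counts on genes per GFP+ library and 1865121 to 2514874 per GFP- library. Levels are given as CPM, the counts scaled to a library size of 1000000 after TMM factors. Where no read was seen, up to 3 counts remain possible, or 0.991 to 2.14 CPM in GFP+ and 0.945 to 3.13 CPM in GFP- libraries. Mitochondrial genes took 12.4% to 39.3% of the counts in GFP+ and 25% to 66.1% in GFP- libraries. The sort was checked on marker lists: 18 of 18 tested rod IDs were higher and 18 of 19 tested cone IDs were lower in GFP+ cells. The rod IDs summed to 43726 to 77188 CPM in GFP+ and still to 3459 to 16169 CPM in GFP- libraries. The cone IDs summed to 29116 to 56130 CPM in GFP- and to 6588 to 10053 CPM in GFP+ libraries, or 16.3% to 27.3% of the GFP- sum within a fish.

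Differences were tested within fish with edgeR's quasi-likelihood F test over 12564 genes, and FDR means its Benjamini-Hochberg adjusted p. At an FDR of 0.01, 9 of the 35 tested genes were lower in GFP+ cells, against 5.68% of all tested genes, and 0 were higher, against 3.13%. At an FDR of 0.05 the counts were 11 and 0, against 1202 and 703 of the 12564 tested genes. At an unadjusted p under 0.05, 16 genes were lower and 2 (*hexa* and *c1qbp*) higher, against 1980 and 1346 of the 12564. DESeq2 and edgeR's likelihood ratio test also called 0 genes higher. Over all tested genes DESeq2 called 953 lower and 529 higher, and 11 and 0 of the 35. The median log2 fold change (GFP+ over GFP-) was -0.89 for the 35 genes and -0.02 for all tested genes. The 4 GFP+ libraries lay below all 4 GFP- libraries for 13 of the 35, against 8.96% of all tested genes. They lay above them for 1, *hexa*, against 701 of the 12564 tested genes.

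**Figure D1:**
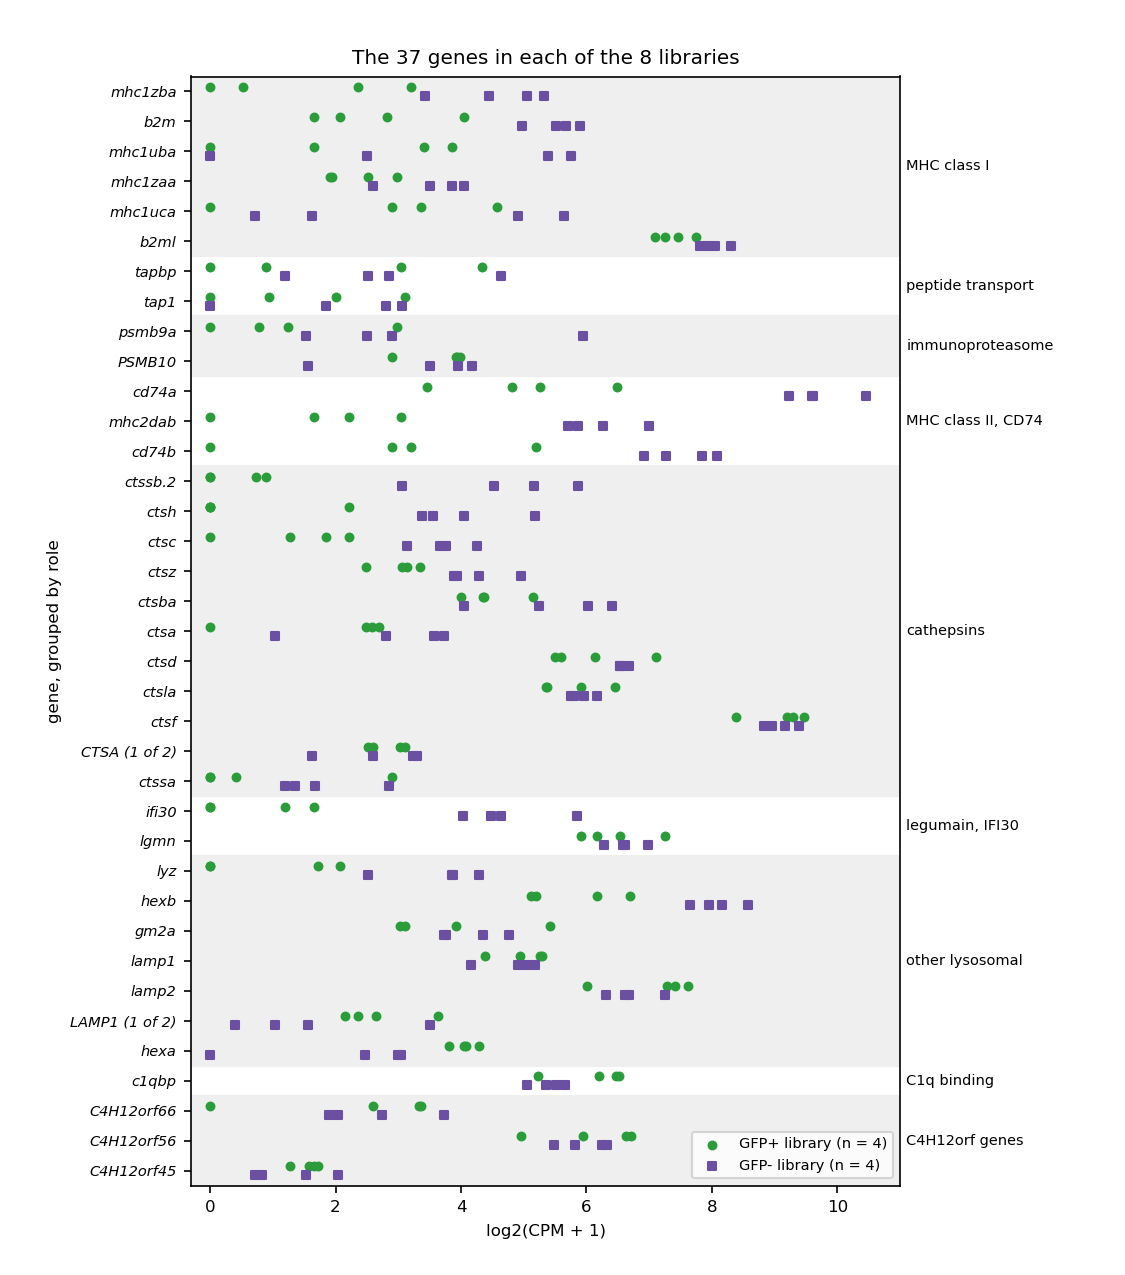
Level of each of the 37 genes, as log2(CPM + 1), in the 4 GFP+ libraries (circles) and the 4 GFP- libraries (squares), grouped by role. *cd74a*, *cd74b* and *mhc2dab* separate completely, with *cd74a* at 10.0 to 88.9 CPM in GFP+ and 601 to 1406 CPM in GFP- libraries. For *mhc2dab* the filter on low counts largely set this separation. *ctsf* and *lgmn* overlap, and *hexa* lies higher in GFP+ libraries.

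Some limits apply to these counts. For *ctsc*, *ctssb.2*, *ifi30* and *lyz* no GFP+ library reached the minimum of the low count filter, so they passed through GFP- libraries alone. So did 563 of all tested genes, and 2 of these genes, *ctssb.2* and *ifi30*, are among the 9. A single library was not enough to pass, and *ctsh*, *mhc2dab* and *mhc1zba*, also among the 9, reached the minimum in GFP+ only in fish 1. They had 11, 22 and 25 counts there, so they too were tested only because of GFP- libraries. All of the genes named in this paragraph so far are also among the 13 whose GFP+ libraries lay below all GFP- libraries. For them that separation was largely set by the filter, and how many of all tested genes share this was not counted. Of the 37 names, 3 (*C4H12orf45*, *C4H12orf56* and *C4H12orf66*) match the pattern only by the letters of C4 and are open reading frames named after a chromosome, and without them the median was -1.05. In such bulk samples, fewer cells of a type and less RNA per cell cannot be told apart.

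In the MHC class II group, 3 of 3 genes fell in GFP+ cells. *cd74a*, an invariant chain gene on chromosome 14 (Zv9, 3122605 to 3136493), was measured at 37.3, 88.9, 10.0 and 27.0 CPM for GFP+ cells of fish 1 to 4. In the GFP- libraries of the same fish it was at 601, 1406, 783 and 773 CPM. The lowest GFP- value therefore lay well above the highest GFP+ value. The log2 fold change was -4.67 ± 0.36 (SE derived from the F statistic, n = 4 fish, FDR 2.84e-08).

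The second invariant chain gene, *cd74b* on chromosome 21 (32377028 to 32381287), was at 35.7, 6.47, 0 and 8.23 CPM in GFP+ and 154, 228, 270 and 120 CPM in GFP- libraries. The groups did not overlap (log2 fold change -4.29 ± 0.57, FDR 1.19e-05), but fish 1 stood out among the GFP+ libraries. There *cd74b* reached 23.2% of the GFP- level of that fish, against 0% to 6.83% in the other fish, whereas *cd74a* in fish 1 was at 6.21%. *mhc2dab*, a class II beta chain gene on chromosome 8 (37546100 to 37548453), was at 7.26, 0, 2.14 and 3.66 CPM in GFP+ and 57.3, 126, 76.1 and 51.1 CPM in GFP- libraries. Its ranges were also apart (log2 fold change -4.53 ± 0.59, FDR 9.58e-06), but *mhc2dab* was tested only because of GFP- libraries, which largely set that separation.

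Markers of microglia and macrophages were also lower in GFP+ libraries. Of 28 IDs on that list, 19 were tested and 16 were lower in GFP+ cells. Their CPM summed to 37.2 to 167 in GFP+ and 1224 to 3118 in GFP- libraries, and 9 of the 28 had 0 counts in all GFP+ libraries. Of these 9, *mpeg1* was the only 1 tested, and the other 8 were at most at 8.52 CPM in any GFP- library, 4 of them at 0 there too. Within fish, the GFP+ sum was 6.72%, 5.36%, 2.75% and 4.51% of the GFP- sum for fish 1 to 4, and *cd74a* was at 6.21%, 6.32%, 1.28% and 3.49%. The marker *apoc1l* made up much of both sums, at a mean of 58.1 CPM in GFP+ and 1213 CPM in GFP- libraries. Several of these markers are in the study's own tables from these libraries, so the list is not independent evidence, and the part of such cells in the differences was not tested. Among the tested IDs, *mpeg1*, *havcr1*, *coro1a* and *marco* were at means of 0, 0.083, 0.229 and 0.413 CPM in GFP+ libraries. They were tested only because of GFP- libraries. For such IDs a lower level in GFP+ was largely set by the filter, so the 16 called lower are no separate support.

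Marker lists of other cells were counted in the same way. Of 6 tested erythrocyte IDs, 5 were lower in GFP+ cells, with sums of 0 to 8.25 CPM in GFP+ and 104 to 343 CPM in GFP- libraries. The erythrocyte IDs *ba1*, *ba1l* and *si:ch211-5k11.6* were at means of 0.362, 0.114 and 0.229 CPM in GFP+ libraries. *alas2* and 1 ID named *hbaa1* were at 0 there. The other *hbaa1* ID was at 1.82 ± 3.63 CPM (SD, n = 4), with all its GFP+ reads in 1 library. All 6 were therefore tested only because of GFP- libraries, so the 5 called lower are no separate support. On the T and NK lymphocyte list 2 IDs were tested and 1, *il2rb*, was lower. It was at 0 in all GFP+ libraries and so was tested only because of GFP- libraries. The other, *cd3eap*, was not called (FDR 0.744) and is not read here as a lymphocyte marker. Of 9 tested Müller glia, 3 pigment epithelium and 3 vessel IDs, edgeR called 0, and DESeq2 called 1 vessel ID lower. At an unadjusted p under 0.05, 4, 2 and 1 IDs of these lists were lower, against 1980 of the 12564 tested genes. The neutrophil list had 1 tested ID, *csf3r*, which was not called.

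**Figure D2:**
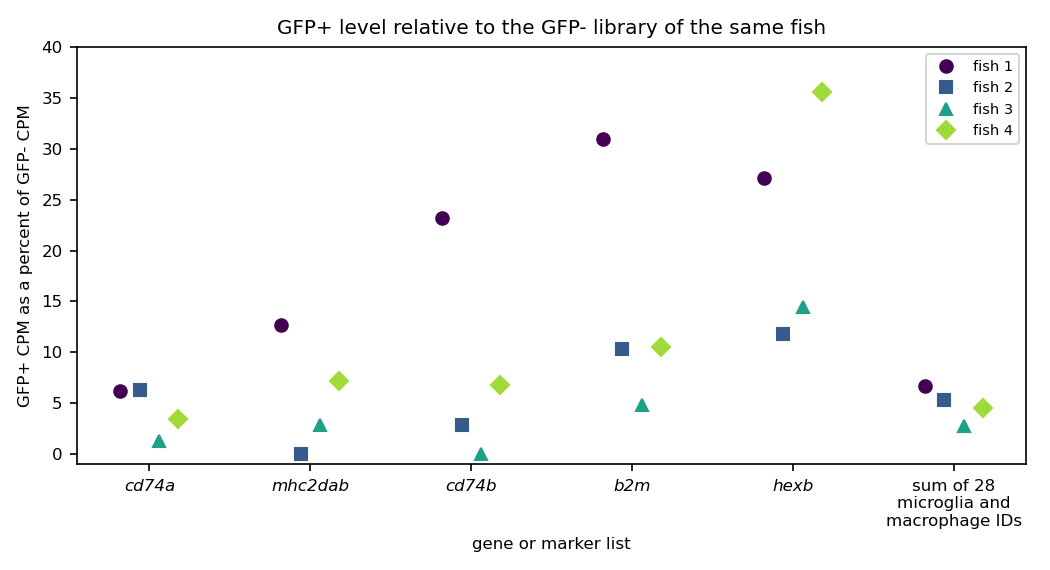
GFP+ level as a percent of the GFP- level of the same fish, for 5 genes and for the summed microglia and macrophage list, with 1 point per fish. The marker sum, much of which is *apoc1l*, lies between 2.75% and 6.72%, whereas *hexb* lies between 11.8% and 35.5%. Fish 1 has the highest value for *cd74b*, *b2m*, *mhc2dab* and the marker sum.

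MHC class I was more varied: all 6 genes had negative log2 fold changes, 2 of the 6 fell and 4 did not pass the test. *b2m*, the light chain shared by class I molecules (chromosome 4, 11857920 to 11860013), was at 15.5, 6.04, 2.14 and 3.2 CPM in GFP+ libraries. It was at 50.1, 58.5, 44.8 and 30.4 CPM in GFP- libraries, without overlap (log2 fold change -2.97 ± 0.48, FDR 0.000122). Its paralog *b2ml* (chromosome 8, 53210637 to 53219002) was closer between the populations, at 136, 213, 151 and 174 CPM in GFP+ and 316, 245, 264 and 224 CPM in GFP- libraries. That difference did not pass the test, although the 4 GFP+ libraries all lay below the GFP- libraries (log2 fold change -0.65 ± 0.26, FDR 0.110).

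Among the heavy chains, *mhc1zba* of the Z lineage (chromosome 1, 47652531 to 47659103) fell. It was at 8.25, 0.432, 0 and 4.11 CPM in GFP+ and 39.1, 20.9, 32.3 and 9.71 CPM in GFP- libraries (log2 fold change -3.19 ± 0.74, FDR 0.00401). The highest GFP+ and the lowest GFP- library were close, and the call was lost when fish 1, 2 or 3 was left out (FDR 0.0342, 0.0349 and 0.0152). Its neighbour *mhc1zaa* ranged from 2.74 to 6.93 CPM in GFP+ and from 5.04 to 15.5 CPM in GFP- libraries (FDR 0.283). Another ID of that name, outside the annotated table and untested, had 8, 0, 0 and 0 counts in GFP+ and 6, 3, 2 and 3 in GFP- libraries. Reads of such similar heavy chain genes may not be told apart by the counting.

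The U lineage genes *mhc1uba* and *mhc1uca*, classical class I genes that lie near each other on chromosome 19, differed between fish. *mhc1uba* was at 13.5, 2.16, 0 and 9.60 CPM in GFP+ and 40.6, 4.65, 0 and 53.1 CPM in GFP- libraries. Both libraries of fish 3 therefore had 0 counts, with upper limits of 2.14 and 3.13 CPM, and both libraries of fish 2 were low. *mhc1uca* was at 9.24, 22.9, 6.43 and 0 CPM in GFP+ and 29.0, 48.8, 2.09 and 0.647 CPM in GFP- libraries, with fish 2 highest and fish 4 at or near 0 in both populations.

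A test of the fish terms in the same edgeR model, chosen after these values were seen, called both genes (FDR 0.00109 for *mhc1uba* and 0.00236 for *mhc1uca*). They were the only 2 of the 35 genes so called, against 2.83% of all tested genes. Between GFP+ and GFP- neither passed (log2 fold change -1.77 ± 0.61, FDR 0.0529, and -0.86 ± 0.65, FDR 0.444). Each fish contributed 2 libraries to the fish terms, and without fish 1 or without fish 4 neither gene was called (FDR 0.0177 and 0.0104 without fish 1, 0.0101 and 0.147 without fish 4). Without fish 2 only *mhc1uba* was called, and without fish 3 only *mhc1uca*.

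The share of *mhc1uba* in the reads of the pair was nearly the same in both populations of a fish. In fish 1, *mhc1uba* took 41 of 69 reads in the GFP+ library (59.4%, exact 95% interval 46.9% to 71.1%) and 129 of 221 in the GFP- library (58.4%, 51.6% to 64.9%). In fish 2 it took 5 of 58 (8.62%, 2.86% to 19%) and 12 of 138 (8.70%, 4.57% to 14.7%). In fish 4 it took 21 of 21 (100%, 83.9% to 100%) and 82 of 83 (98.8%, 93.5% to 100%). Fish 3 had 0 of 9 and 0 of 2 reads, too few to place its share (upper bounds 33.6% and 84.2%). The intervals of fish 1, 2 and 4 do not overlap in either population, and they cover counting error only.

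The same stretch of chromosome 19 holds *tapbp* (7661248 to 7684700, minus strand), *mhc1uca* (7666170 to 7674017, plus strand), *mhc1uba* (7695390 to 7723636, plus strand) and *psmb9a* (7742916 to 7744909, plus strand). *mhc1uca* lies within the span of *tapbp* on the other strand, and whether the counting used strand is not given in the sources used here, so their reads may not be told apart. *tapbp*, which encodes tapasin, was at 7.26, 0.863, 19.3 and 0 CPM in GFP+ and 4.73, 6.19, 24.0 and 1.29 CPM in GFP- libraries. Fish 3 was highest in both populations, and the difference between fish missed the threshold (FDR 0.0587).

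*psmb9a*, an immunoproteasome subunit, was at 6.93, 0, 0.715 and 1.37 CPM in GFP+ and 1.89, 4.65, 60.5 and 6.47 CPM in GFP- libraries. Its high value rests on the GFP- library of fish 3 alone, and neither the populations (log2 fold change -2.51 ± 1.13, FDR 0.154) nor the fish (FDR 0.319) differed by the test. Of the other 6 genes of the annotated table within 100 kb of these 4, 0 differed between fish, and their smallest FDR was 0.158. It was that of *hsd17b8*, which also had 0 counts in both libraries of fish 3. Gene IDs outside that table had no position here, so further neighbours may be missing.

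**Figure D3:**
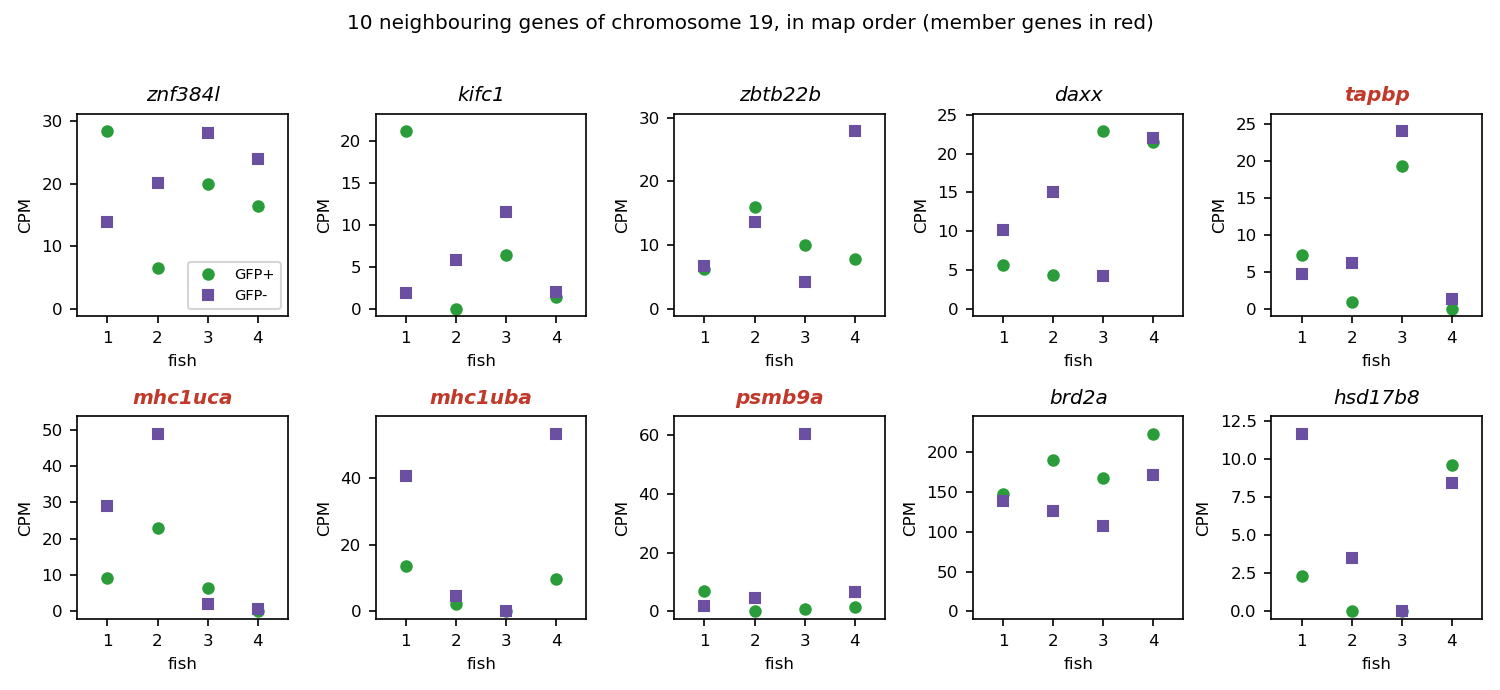
CPM of the 10 genes that the annotated table places in this stretch of chromosome 19, in the GFP+ (circles) and GFP- (squares) library of each fish. Genes are in map order, with the 4 genes of antigen presentation in red, and IDs outside that table are not shown. *mhc1uba* is at 0 in both libraries of fish 3 and *mhc1uca* is at or near 0 in both of fish 4. The neighbour *hsd17b8* is also at 0 in both libraries of fish 3, within ranges of 0 to 9.60 CPM in GFP+ and 0 to 11.7 CPM in GFP- libraries. *brd2a* stays between 107 and 223 CPM in all 8 libraries.

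The remaining genes of peptide supply did not pass the test. *PSMB10*, another immunoproteasome subunit, was at 14.9, 14.2, 6.43 and 14.2 CPM in GFP+ and 14.5, 17.0, 10.4 and 1.94 CPM in GFP- libraries (log2 fold change 0.33 ± 0.63, FDR 0.808). *tap1*, a subunit of the peptide transporter, was at 7.59, 3.02, 0 and 0.914 CPM in GFP+ and 5.99, 7.36, 0 and 2.59 CPM in GFP- libraries (-0.69 ± 1.08, FDR 0.757). The ranges of both genes overlapped.

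Among the cathepsins, 10 of 11 genes were tested, 2 fell, 0 rose and 8 did not pass at an FDR of 0.01. *ctssb.2*, a cathepsin S gene whose mammalian counterpart trims the invariant chain (chromosome 16, 31774764 to 31780268), was at 0.660, 0.863, 0 and 0 CPM in GFP+ libraries. It was at 22.1, 57.3, 7.30 and 35.0 CPM in GFP- libraries, so every GFP+ library lay at or below the upper limit of a count of 0 (log2 fold change -6.03 ± 0.75, FDR 5.91e-06). *ctsh*, an aminopeptidase (chromosome 18, 26208613 to 26215014), was at 3.63, 0, 0 and 0 CPM in GFP+ and 10.7, 35.2, 9.38 and 15.5 CPM in GFP- libraries.

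The *ctsh* difference passed (log2 fold change -4.61 ± 1.03, FDR 0.00298), but not without fish 2 (-3.75, FDR 0.0544) or without fish 4 (FDR 0.0396). Without fish 1, which held every GFP+ read of *ctsh*, all GFP+ libraries were at 0 and the fitted value was -8.29, which depends on the prior count. *ctsc*, which activates granule proteases in mammals, was at 0, 2.59, 1.43 and 3.66 CPM in GFP+ and 11.7, 18.2, 12.5 and 7.77 CPM in GFP- libraries. It passed at an FDR of 0.05 only (-2.95 ± 0.89, FDR 0.0255).

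The cathepsins with higher counts did not pass the test. *ctsf*, a cysteine protease (chromosome 14, 7141307 to 7164956), was at 332, 584, 629 and 711 CPM in GFP+ and 672, 494, 453 and 572 CPM in GFP- libraries. The populations overlapped, with fish 1 the only fish in which GFP- was higher, and the log2 fold change was 0.01 ± 0.28 (FDR 0.989). *ctsd*, the aspartic protease, ranged from 44.0 to 136 CPM in GFP+ and from 91.7 to 102 CPM in GFP- libraries (-0.52 ± 0.31), and *ctsla* from 39.8 to 86.5 and from 52.9 to 70.9 CPM (-0.16 ± 0.30).

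*ctsba* (-1.05 ± 0.39, FDR 0.0725) and *ctsz* (-1.36 ± 0.54, FDR 0.0981) were lower in GFP+ cells in 4 of 4 fish without passing. *ctsa* (-1.05 ± 1.03) and *CTSA (1 of 2)* (0.06 ± 0.76), carboxypeptidases with at most 12.3 CPM in any library, were too low to place. The untested *ctssa* had 1, 0, 9 and 0 counts in GFP+ and 7, 4, 6 and 2 counts in GFP- libraries.

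**Figure D4:**
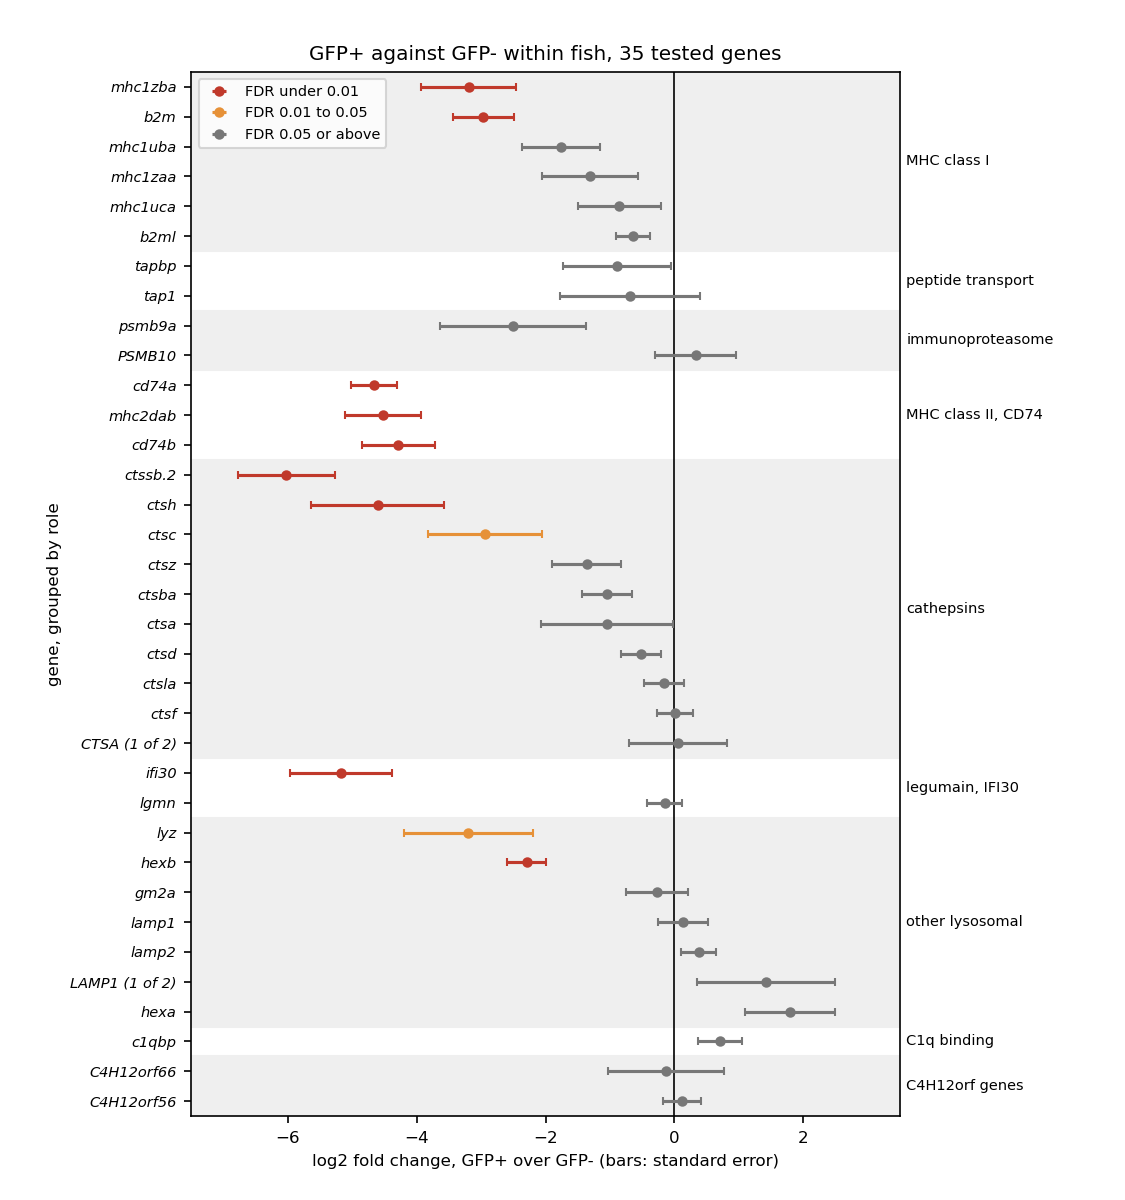
Log2 fold change of GFP+ over GFP- within fish (points) for the 35 tested genes, grouped by role and coloured by FDR. Bars are standard errors derived from the F statistic. The class II genes and *cd74* lie between -4.67 and -4.29, whereas the cathepsins spread from -6.03 for *ctssb.2* to 0.06 for *CTSA (1 of 2)*.

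*ifi30*, the lysosomal thiol reductase that opens disulfide bonds of antigens (chromosome 2, 24532156 to 24537059), was at 0, 1.30, 2.14 and 0 CPM in GFP+ libraries. It was at 15.4, 21.3, 24.0 and 57.0 CPM in GFP- libraries (log2 fold change -5.18 ± 0.80, FDR 7.11e-05). The ranges were apart, but *ifi30* passed the filter through GFP- libraries alone, which largely set that separation. *lgmn*, which encodes the asparaginyl endopeptidase legumain, was at 71.0, 91.5, 152 and 59.4 CPM in GFP+ and 95.1, 97.6, 125 and 77.0 CPM in GFP- libraries. Its populations overlapped (-0.15 ± 0.27, FDR 0.793).

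Of the 7 lysozyme, hexosaminidase, GM2 activator and LAMP genes, 1 fell and 0 rose, and their median was 0.14. The gene that fell was *hexb* (chromosome 5, 36218612 to 36234497), the beta subunit of hexosaminidase and a microglial marker in mouse. It was at 103, 33.7, 35.7 and 71.3 CPM in GFP+ and 379, 285, 247 and 201 CPM in GFP- libraries (log2 fold change -2.29 ± 0.30, FDR 1.19e-05). The GFP+ libraries held 27.1%, 11.8%, 14.5% and 35.5% of the GFP- level of *hexb* in fish 1 to 4, against 1.28% to 6.32% for *cd74a*, and the difference between the genes was not tested.

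*hexa* (chromosome 25, 22940062 to 22964651), the alpha subunit that pairs with the *hexb* product in the enzyme acting on GM2 ganglioside, went the other way. It was at 15.5, 12.9, 18.6 and 16.0 CPM in GFP+ and 7.25, 6.97, 0 and 4.53 CPM in GFP- libraries. GFP+ was higher in 4 of 4 fish without overlap, but the difference did not pass over all genes (log2 fold change 1.79 ± 0.70, FDR 0.0934).

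Of the reads on both subunits, *hexa* took 13.1% (exact 95% interval 9.81% to 17.1%), 27.8% (19.6% to 37.2%), 34.2% (23.7% to 46.0%) and 18.3% (13.1% to 24.6%) in the GFP+ libraries of fish 1 to 4. In GFP- libraries it took 1.88% (1.19% to 2.80%), 2.39% (1.42% to 3.75%), 0% (up to 1.54%) and 2.21% (0.892% to 4.50%). These intervals cover counting error only, and a higher share follows from the lower *hexb* level in GFP+ cells as well as from *hexa*, so it adds no separate evidence on *hexa*.

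**Figure D5:**
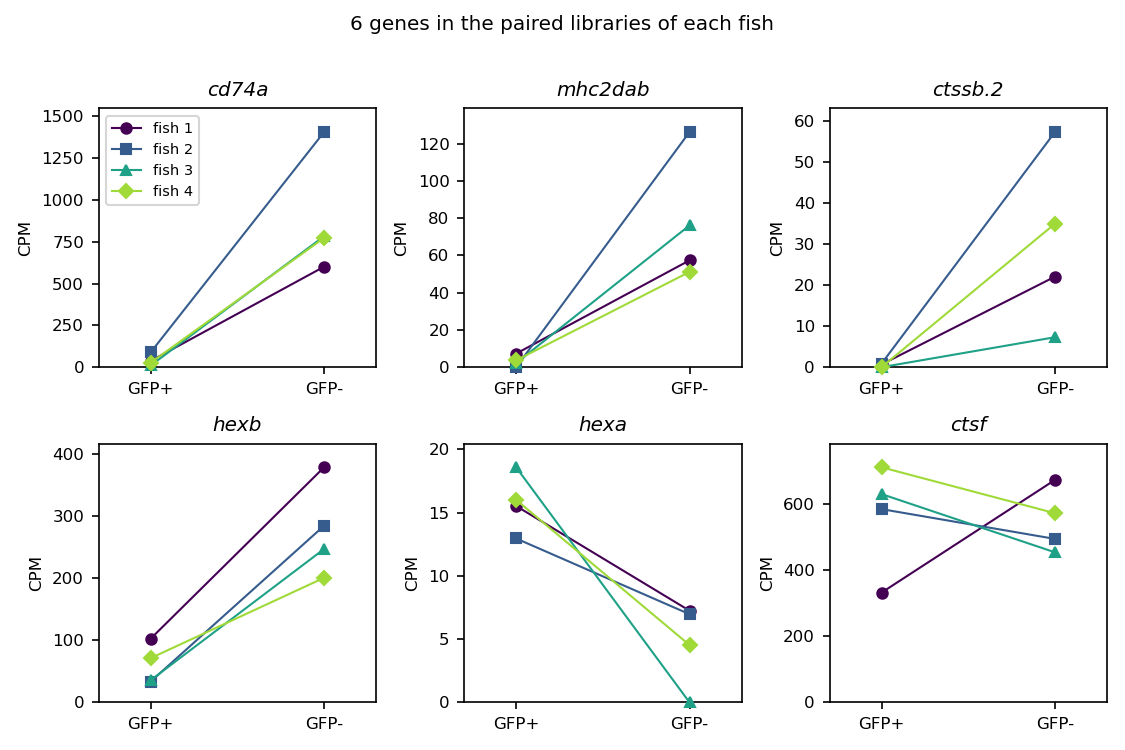
CPM of 6 genes in the GFP+ and GFP- library of each fish, with lines joining the libraries of 1 fish. *cd74a*, *mhc2dab*, *ctssb.2* and *hexb* are lower in GFP+ in all 4 fish, *hexa* is higher in all 4 (12.9 to 18.6 against 0 to 7.25 CPM), and *ctsf* is lower in fish 1 only.

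*lyz*, which encodes lysozyme and marks myeloid cells, was at 2.31, 0, 0 and 3.2 CPM in GFP+ and 4.73, 18.6, 13.6 and 13.6 CPM in GFP- libraries. It passed at an FDR of 0.05 only (log2 fold change -3.2 ± 1.0, FDR 0.0321). *lamp2*, a glycoprotein of the lysosomal membrane, was at 63.7, 169, 196 and 155 CPM in GFP+ and 78.8, 101, 151 and 97.1 CPM in GFP- libraries, with overlap (0.37 ± 0.27, FDR 0.424). *lamp1* (0.14 ± 0.39), *LAMP1 (1 of 2)* (1.41 ± 1.07) and *gm2a* (-0.28 ± 0.48) did not pass.

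No gene of the classical complement cascade was among the 37. *c1qbp*, matched by its letters, encodes a mitochondrial protein that binds C1q and is no C1q chain. It was at 72.6, 36.7, 90.7 and 87.8 CPM in GFP+ and 49.5, 44.9, 32.3 and 40.1 CPM in GFP- libraries, higher in GFP+ in 3 of 4 fish (0.71 ± 0.33, FDR 0.179). The open reading frame *C4H12orf56* was at 98.1, 60.9, 30.0 and 103 CPM in GFP+ and 79.1, 55.4, 43.8 and 75.1 CPM in GFP- libraries (0.12 ± 0.30). *C4H12orf66* was at 9.24, 9.06, 0 and 5.03 CPM in GFP+ and 5.67, 2.71, 3.13 and 12.3 CPM in GFP- libraries (-0.13 ± 0.90), and neither passed.

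A further 51 IDs outside the annotated table carry names of the same pattern in a table of gene names, and 26 of them had 0 counts in all libraries, among them *c1qc* and 7 of 8 class II IDs. Another 10 had 0 counts in all GFP+ libraries and some in GFP-. *c1qb*, a chain of the complement initiator C1q, had 14, 42, 2 and 2 counts in GFP- libraries and did not pass (FDR 0.0125). *CTSK*, cathepsin K, had 2, 40, 3 and 19 counts in GFP- libraries (FDR 0.00603). Most reads of both came from the GFP- library of fish 2. *c1qa* had 0, 9, 3 and 23 counts and *c4* had 27, 3, 0 and 1 counts in GFP- libraries, both untested.

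Of these 51 IDs, 8 were tested and 4 were lower at an FDR of 0.01: *CTSK*, *PSMB8*, *cfbl* and *psmb13a*. All 4, and 6 of the 8, passed the filter on low counts through GFP- libraries alone, as 563 of all tested genes did, so their count is no support for a difference of the group. With 1 fish left out in turn, *CTSK* and *cfbl* were each called in 1 of the 2 fits that tested them. *PSMB8* and *psmb13a* were each called in 1 of 4 fits. *PSMB8*, an immunoproteasome subunit, had 0, 0, 0 and 3 counts in GFP+ and 61, 25, 0 and 33 counts in GFP- libraries (FDR 0.0023). *cfbl*, which resembles complement factor B, had 0, 0, 0 and 3 counts in GFP+ and 45, 8, 0 and 34 counts in GFP- libraries (FDR 0.00861). Both genes had 0 counts in both libraries of fish 3, while *psmb13a* had 0, 1, 0 and 0 counts in GFP+ and 30, 3, 16 and 13 in GFP- libraries (FDR 0.00953).

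Genes of the same pathways that the name pattern does not reach were counted on separate lists, with 76 of 100 IDs tested. Of these 9 were lower and 0 higher in GFP+ cells at an FDR of 0.01. At an unadjusted p under 0.05, 19 were lower and 9 higher, against 1980 and 1346 of the 12564 tested genes. Their median log2 fold change was -0.29. DESeq2 called 10 of them lower and 2 higher. Of the 76, 5 passed the filter through GFP- libraries alone, and 3 of these (*irf8*, *itgb2* and *tfeb*) are among the 9. *stat1b*, *itgb2*, *CD68* and *cd63* were called with each fish left out in turn. Of these 4 fits, *grna* was called in 3, *irf1b* in 2, and *irf8* and *jak1* in 1 each. *tfeb* was called in 0 of the 3 fits that tested it. The tests are the same as above, so the shares of all tested genes called in each direction apply here too. The counts of all tested genes at an unadjusted p under 0.05 apply likewise to the separate lists that follow.

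Regulators of antigen presentation held 4 of the 9. *stat1b*, an interferon signal transducer, was at 13.1 ± 7.27 CPM in GFP+ and 67.7 ± 38.0 CPM in GFP- libraries (SD, n = 4, FDR 0.000255), and *irf1b*, an interferon response factor, at 18.7 ± 15.9 and 59.9 ± 25.5 CPM (FDR 0.00171). *irf8*, a factor of myeloid cells, and *jak1*, a cytokine receptor kinase, also fell, but were each called in 1 of 4 fits with a fish left out. Of the 11 tested regulators 7 were not called. Among them was *stat1a*, at 137 ± 38.9 CPM in GFP+ and 170 ± 56.8 CPM in GFP- libraries (FDR 0.539). Of 5 tested complement genes 1 fell, the receptor subunit *itgb2*, at 1.08 ± 0.736 and 26.8 ± 12.6 CPM. *cfp*, which encodes properdin, had an FDR of 0.0303.

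Lysosomal membrane and trafficking genes held the other 4, of 19 tested. *CD68*, a macrophage lysosomal glycoprotein that is also on the microglia list with *itgb2*, was at 3.88 ± 0.95 CPM in GFP+ and 60.7 ± 24.6 CPM in GFP- libraries (FDR 2.86e-06). *cd63*, a tetraspanin of late endosomes, was at 12.4 ± 8.46 and 85.4 ± 27.2 CPM (FDR 0.000109). *grna* (progranulin) and *tfeb* (a regulator of lysosome genes) fell as well, but *tfeb* was called in 0 of 3 fits with a fish left out. *grnb*, on the same list, was not called, at 51.6 ± 30.1 and 44.0 ± 14.8 CPM (FDR 0.830). *mcoln1b*, a lysosomal cation channel, was higher at an FDR of 0.05 only, at 19.4 ± 11.7 and 4.18 ± 3.43 CPM (FDR 0.0201).

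Of 26 tested lysosomal hydrolases outside the pattern, edgeR and DESeq2 called 0 in either direction, and their median log2 fold change was 0.15. At an unadjusted p under 0.05, 3 were lower and 4 higher. The smallest p was that of *psap*, the saposin precursor, at 32.0 ± 12.1 CPM in GFP+ and 60.6 ± 20.9 CPM in GFP- libraries (FDR 0.0496), followed by *pla2g15*, a lysosomal phospholipase, at 17.0 ± 8.33 and 5.54 ± 3.01 CPM (FDR 0.0796). Of the 7 genes *psmb1* to *psmb7*, which encode beta subunits of the proteasome core, both tools called 0. At an unadjusted p under 0.05, 2 were higher, and the median was 0.57. *psmb2* was at 84.2 ± 20.2 and 51.1 ± 11.1 CPM (FDR 0.105) and *psmb3* at 122 ± 23.8 and 79.2 ± 20.5 CPM (FDR 0.155).

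Of 5 tested peptide loading and trimming genes edgeR called 0 at an FDR of 0.01 and DESeq2 called 1 higher, and 1 was lower and 1 higher at an unadjusted p under 0.05. The chaperone *canx* was at 407 ± 81.3 CPM in GFP+ and 246 ± 127 CPM in GFP- libraries (FDR 0.0304), and the proteasome activator *psme1* at 25.3 ± 20.3 and 45.7 ± 14.7 CPM (FDR 0.0852). Of 3 cathepsin inhibitors both tools called 0, and 1 was lower at an unadjusted p under 0.05, with *zgc:56530* at 10.7 ± 6.97 and 26.1 ± 5.39 CPM (FDR 0.0448) and *cst3*, cystatin C, at 48.5 ± 20.6 and 60.3 ± 16.8 CPM (FDR 0.556).

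The 9 genes that fell kept their direction in every alternative fit that tested them. With the fish left out of the model as a block, 4 of 31 tested genes were lower (*cd74a*, *mhc2dab*, *ifi30* and *hexb*), while *b2m*, *cd74b*, *ctsh*, *ctssb.2* and *mhc1zba* were not called or not tested. With DESeq2, with edgeR's likelihood ratio test or without the filter on low counts, 11 were lower, the added genes being *ctsc* and *lyz*.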

How the data were processed

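RNA-seq was available from 8 libraries, a GFP+ and a GFP- library from each of 4 fish, and groups were taken from the sample labels. Fish 3 and 4 carry a suffix in their labels whose meaning is not given in the sources used here. After trimming (Sickle) and merging of read pairs (FLASH), the authors used the Burrows-Wheeler aligner on Zv9 (Ensembl 75) and deposited raw, whole-number HTSeq counts for each gene. HTSeq's counters of unassigned reads, 34.4% to 55.3% of the totals, were left out. The authors also deposited an annotated table with results of their own comparison (log2 values, a test score and p-values), none of which were used. Its normalized signal per library, deposited by the authors, gave whole reads for 100% of values, all equal to the counts, and a count test on these reads called 9 genes lower.

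The counts were fitted with edgeR 4.0.16 under R 4.3.3. Genes passed filterByExpr at a minimum count of 10, libraries were scaled by TMM, dispersions followed the trend, and fish entered as a block. P-values of the quasi-likelihood F test were adjusted by Benjamini-Hochberg over 12564 genes. DESeq2 1.42.0 served as an alternative, and tables were made in Python 3.11.15. The test was tested on simulated data. These held no differences between fish, and changes were set only in genes above the median level, so they do not bear on genes below it. A prior count of edgeR enters each log2 fold change. The standard error given with it is its size divided by the root of the F statistic, not an error estimated by the fit. It can differ from the DESeq2 standard error where GFP+ libraries have 0 counts. The 2 were 0.57 and 1.28 for *cd74b*, 0.59 and 1.16 for *mhc2dab*, and 1.13 and 1.02 for *psmb9a*. Pairing by fish follows the study's methods, and the deviations of the 2 libraries of a fish from their group means correlated at 0.323, 0.292, 0.333 and 0.214 over genes, against means of -0.169 to -0.062 with other fish. Libraries of a group correlated at 0.752 to 0.902.

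The genes and lists were chosen with earlier results of these data known. Values in every library are given for the 3 tested genes with the smallest p in each role, the one with the highest mean CPM in GFP+ and any with a positive change and an unadjusted p under 0.05. Means ± SD are given for the 2 pathway genes with the smallest p in each list. *mhc1uca*, the genes described with counts alone, the other pathway genes that passed, *stat1a* and *grnb* were added after their values were seen. So were the test between fish and the read shares of gene pairs. Positions (Zv9) were copied from the authors' table. Sequences were not used here. Alternatives covered the block, the test, the scaling, the filter, the FDR, mitochondrial genes and each fish left out.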

Additional observations from a re-analysis of the deposited data

Results flagged for a closer look

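In 3 of the 48 groups of 4 libraries examined (24 genes in each population), 1 library stood apart from the others by Dixon's criterion, which chance meets in about 1 in 20 groups. *psmb9a* in GFP- cells was at 60.5 CPM in fish 3 and at 1.89 to 6.47 CPM in the other fish. *ctsh* in GFP+ cells was at 3.63 CPM in fish 1 and at 0 in the other fish. *PSMB10* in GFP+ cells was at 6.43 CPM in fish 3 and at 14.2 to 14.9 CPM in the other fish.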

How the results depend on the processing

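Results for the named genes kept their side of the threshold in 268 of 284 alternative fits, were weaker in 10 and passed newly in 6. Of the 268, 24 came from the recovered reads, which equal the counts and so could hardly differ. Fits in which a named gene was not tested are not among the 284. The sign changed in 8 of the 284, all for genes called in no fit (*C4H12orf66*, *lgmn*, *ctsf* and *PSMB10*), and none of the other named genes changed sign. Without the fish as a block, 4 of the genes and 2 of the pathway genes outside the name pattern were lower, against 9 and 9. With 1 fish left out, 7 to 8 of the genes (*mhc1zba* or *ctsh* being lost) and 5 to 8 of the pathway genes were lower, and 0 to 1 pathway genes were higher. Pathway genes called higher numbered 2 at an FDR of 0.05, 1 with the likelihood ratio test, 2 with library size alone, 1 without the filter and 2 with DESeq2, against 0. Between fish, the likelihood ratio test and the fit without the filter each called 4 genes (*cd74a* and *tapbp* in addition), library size alone 3, and leaving out 1 fish 0 to 1, against 2. Library size alone moved the median log2 fold change of all tested genes from -0.02 to 0.32 and that of the 35 genes to -0.61. Leaving out mitochondrial genes changed no count of genes that were lower, higher or different between fish. Depth limits the genes with few counts, above all in fish 3, where 0 counts allow up to 2.14 CPM in GFP+ and 3.13 CPM in GFP- libraries.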
